A study of Arabidopsis thaliana with 28 samples.

Results

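The genes described here are those nearest the centromeres of Arabidopsis thaliana, the stretches of the 5 chromosomes where genes lie among long arrays of silent repeats and transposons. They were taken by locus identifier, since Arabidopsis identifiers run along each chromosome. The intervals were AT1G36300 to AT1G44500, AT2G07800 to AT2G13000, AT3G32000 to AT3G42500, AT4G05300 to AT4G08500 and AT5G29000 to AT5G33500. Of the 433 rows of the deposited count tables inside them, 207 held at least 20 counts summed over the 8 RNA libraries, and these are the members, out of 27416 rows in all. The count that chose a member is a sum over all genotypes. A weak gene could reach 20 counts through the genotype where it was high, so for weak members the choice is tied to the order of the genotypes. RefSeq's gene list for TAIR10.1 held 204 of the 207 members, all as protein-coding genes, and gave 66 of them a symbol. Members without a symbol are called by their locus identifier.

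Closed flower buds were compared between the mutants ibm1, ibm1 jmj27 and pds5 and the control Col, the Columbia strain, with 2 libraries of polyadenylated RNA per genotype. The labels name the genotypes only. They give no alleles, do not say which PDS5 gene or genes are disrupted in pds5, and do not state that replicates were separate plants. Each p-value rests on the spread between the 2 libraries of a genotype, pooled over the genotypes fitted together. Part or all of this spread may therefore be technical. It was unequal between the genotypes. Its chi-square divided by degrees of freedom came to 2.30 in ibm1, 14.4 in ibm1 jmj27, 5.60 in pds5 and 2.89 in Col. These values cover all genes, and the members had the same order. A pooled spread is thus too wide for some genotypes and too narrow for others. How far this shaped the calls was not tested. Growth chambers with long days and with short days are both listed, without a statement of which library came from which. Another 20 libraries of the series, made by chromatin immunoprecipitation or from its input, were not analysed here.

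Chromatin around plant centromeres carries dimethylation of lysine 9 on histone H3 (H3K9me2) and DNA methylation outside CG sites. In Arabidopsis the H3K9 methyltransferase KYP and the DNA methyltransferases CMT2 and CMT3 each bind the mark made by the other, which keeps both marks in place. IBM1 and JMJ27 are JmjC-domain demethylases that take methyl groups off H3K9. IBM1 is known for keeping this silencing loop out of the bodies of expressed genes. PDS5 proteins bind and regulate cohesin, the ring-shaped complex that keeps the sister chromatids joined.

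Library totals ran from 19490663 counts in Col replicate 1 to 26038662 in pds5 replicate 1. Levels are given in CPM, the count of a gene scaled to the library's TMM-adjusted size, with the standard deviation (SD) over n = 2 libraries, and fold changes on the log2 scale with a standard error (SE) and the adjusted p of the edgeR quasi-likelihood test. IBM1 (AT3G07610) stood at 20.6 ± 0.869 CPM in ibm1, at 20.1 ± 1.86 CPM in ibm1 jmj27 and at 54.7 ± 1.37 CPM in pds5, against 54.0 ± 2.12 in Col. The locus of JMJ27 (AT4G00990, matched by identifier alone) was at 8.37 ± 0.0367 CPM in ibm1 jmj27 and 73.4 ± 6.12 in ibm1, against 64.3 ± 0.511 in Col. The PDS5A locus (AT5G47690, matched by identifier alone) was at 3.41 ± 0.153 CPM in pds5 and at 109 ± 3.15 CPM in ibm1, against 242 ± 9.22 in Col. Of the 5 PDS5 genes, 4 were lower in pds5 than in Col, and PDS5D did not pass. PDS5B, also matched by identifier alone, was at 4.53 ± 0.622 CPM in pds5, against 68.3 ± 2.06 in Col. PDS5C was at 40.2 CPM in pds5 and 144 in Col, and PDS5E at 79.2 and 146. For LHY, a morning gene of the circadian clock, the level was 19.6 ± 1.32 CPM in ibm1, then 493 ± 12.4 CPM in ibm1 jmj27 and 602 ± 7.33 CPM in pds5, against 2.93 ± 0.111 in Col.

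Markers of the tissues a bud can hold also moved. The 4 green tissue markers summed to 10333 and 10714 CPM in ibm1, 13180 and 13845 in ibm1 jmj27 and 9389 and 9443 in pds5, against 6741 and 6774 in Col. All 4 rose in ibm1 and in ibm1 jmj27, and 3 of 4 rose in pds5. The 4 pollen markers summed to 33.0 and 35.5 CPM in ibm1, 0.233 and 0.420 in ibm1 jmj27 and 101 and 123 in pds5, against 102 and 108 in Col, and in each ibm1 jmj27 library at least 1 of them was at 0. The 4 tapetum markers summed to 637 and 675 CPM in ibm1, 660 and 1009 in ibm1 jmj27 and 402 and 566 in pds5, against 1009 and 1152 in Col. The 5 floral organ identity genes summed to 858 to 1020 CPM over the 6 mutant libraries, against 894 and 934 CPM in Col, so the labelled tissue carried its defining markers. The sum hides opposite changes. Against Col, PI rose by 0.87 log2 units in pds5 and 0.63 in ibm1 jmj27. AG fell by 0.72 and 0.22 and AP1 by 0.40 and 0.34 in the same genotypes, where AP3 and SEP3 did not pass. In ibm1 only SEP3 passed, at -0.26. In such bulk samples fewer cells of a type and less RNA per cell cannot be told apart, and the part of these shifts in the results below was not tested.

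Fewer genes near the centromeres were expressed than elsewhere. Of the 433 rows in the intervals, 116 (26.8%) had 0 counts in all 8 libraries, 110 had 1 to 19 and 207 (47.8%) reached 20. Of the 26983 rows outside, 4.97% had 0 counts and 83.6% reached 20. The share of rows that reached 20 counts was lowest on chromosome 3, at 26.4% of 53 rows, and highest on chromosome 1, at 55.9% of 145. Members that were expressed had a median level of 13.7 CPM, against 17.3 CPM for the 22560 genes outside with at least 20 counts, and 58 of the 207 members (28.0%) averaged under 1 CPM, against 13.8% outside. Together the rows of the intervals took 1.06% to 1.24% of the counts of each library.

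**Figure D1:**
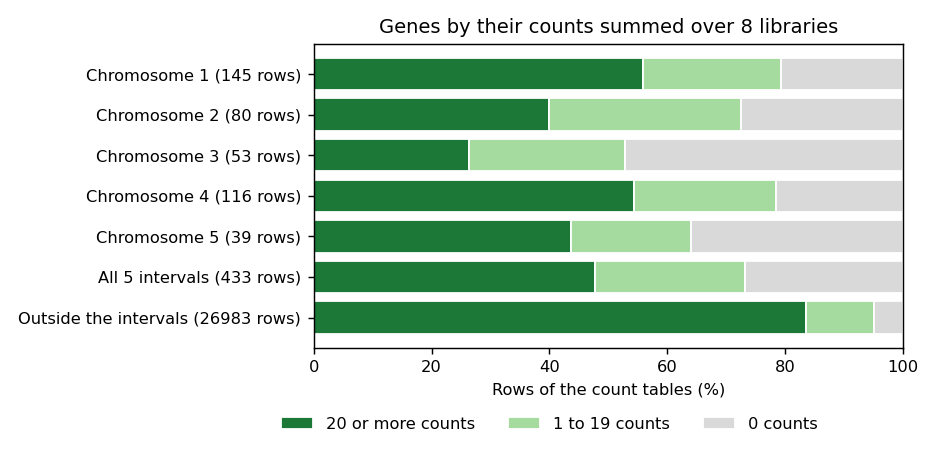
Share of the rows of the count tables (%, horizontal axis) with 20 or more, 1 to 19 and 0 counts summed over the 8 libraries, for each chromosome's interval, all 5 intervals together and the rest of the genome. Rows with 0 counts made up 26.8% of the intervals and 4.97% of the rest.

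Each mutant library detected more of these rows than either Col library. At least 1 count was found for 228 and 235 of the 433 rows in ibm1, 257 and 258 in ibm1 jmj27 and 222 and 222 in pds5, against 206 and 216 in Col. Outside the intervals each mutant library also detected more of the 26983 rows, with 23463 and 23565 in ibm1, 23521 and 23616 in ibm1 jmj27 and 23871 and 23873 in pds5, against 23168 and 23279 in Col. The highest numbers were thus those of ibm1 jmj27 inside the intervals and those of pds5 outside. Depth differed between the libraries, and pds5 replicate 1 held the most counts. The 58 members under 1 CPM summed to 18.3 and 20.1 CPM in ibm1, 22.9 and 24.7 in ibm1 jmj27 and 17.9 and 22.3 in pds5, against 13.6 and 14.3 CPM in Col. Every mutant library was above both Col libraries in this sum. Of the 58, 9 were at 0 in Col and reached 20 counts only through the mutants. The other 49 summed to 16.2 and 18.0 CPM in ibm1, 19.7 and 20.3 in ibm1 jmj27 and 17.5 and 21.8 in pds5, against 13.6 and 14.3 in Col, with pds5 overlapping both other mutants. Some of the 49 still reached 20 counts mainly through the mutants, such as AT3G32980 with 1 count in Col and AT1G36622 with 3. AT1G43160 alone had 141 counts in pds5, against 2 in Col. The sums are thus partly set by the selection, and none was made for genes outside the intervals.

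Some members were silent in Col and had reads in a mutant. In Col, 10 of the 207 members (4.83%) had 0 counts in both libraries, against 0.426% of the 22560 genes outside the intervals. Among genes averaging under 1 CPM the shares were 15.5% of 58 members and 2.93% of 3107 other genes. Members with both libraries at 0 numbered 2 (0.966%) in ibm1 and 4 (1.93%) each in ibm1 jmj27 and pds5. Outside the intervals 0.279% of genes were at 0 in ibm1, 0.833% of them in ibm1 jmj27 and 0.111% of them in pds5, so ibm1 jmj27 had the highest share there, above Col. The 10 members at 0 in Col held 103 counts together in ibm1, 445 counts in ibm1 jmj27 and 24 counts in pds5. AT2G08986 alone gave 264 of the 445. The 96 other genes at 0 in Col held 1441 counts in ibm1, 1950 counts in ibm1 jmj27 and 3791 counts in pds5, with pds5 highest. A member at 0 in Col entered the list only through its counts in the mutants, so its difference is described with no test, and nothing is supported by the number of such members. None of the 10 has a symbol in the RefSeq list, and AT3G42385 is among the 3 members that were not matched there.

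AT2G08986 on chromosome 2 had the most reads of the members silent in Col. It had 13 and 1 counts in ibm1, 135 and 129 in ibm1 jmj27 and 0 and 2 in pds5, against 0 and 0 in Col. The ibm1 jmj27 libraries lay far above all others, while the first ibm1 library was above and the second inside the range of pds5. Against Col the level in ibm1 jmj27 was at least 80.3-fold higher, with a floor of 3 counts over the Col libraries. Against pds5, a comparison added after seeing the data, the ratio was 142 with an exact 95% Poisson interval of 39.0 to 1181. In ibm1 the member was at least 4.67-fold higher than in Col, and 13 of the 14 counts behind this came from replicate 1. These bounds and intervals take in counting error alone.

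AT1G40104 on chromosome 1 was detected almost entirely in ibm1 jmj27. It had 1 and 0 counts in ibm1, 22 and 21 in ibm1 jmj27 and 0 and 0 in pds5, against 0 and 0 in Col. No library outside ibm1 jmj27 held more than 1 count. The level in ibm1 jmj27 was at least 13.1-fold higher than in Col, and its ratio to ibm1 was 39.2 with an exact 95% interval of 6.67 to 1585.

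The other members at 0 in Col are named after their values were seen. AT2G07981 had 2 and 0 counts in ibm1, 21 and 10 in ibm1 jmj27 and 0 and 0 in pds5, against 0 and 0 in Col, and was at least 9.42-fold higher in ibm1 jmj27 than in Col. Loci whose identifiers start with AT2G07 lie next to a large insertion of mitochondrial DNA on chromosome 2, where reads can be shared with mitochondrial copies, so their counts are uncertain. AT1G37113 had 15 and 6 counts in ibm1 and 22 and 12 in ibm1 jmj27, against 0 in both pds5 and both Col libraries, so all 4 libraries with the ibm1 label were above the other 4. It was at least 7.0-fold higher in ibm1 and at least 10.3-fold higher in ibm1 jmj27 than in Col.

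AT5G33390 had 4 and 11 counts in ibm1, 12 and 8 in ibm1 jmj27 and 2 and 1 in pds5, against 0 and 0 in Col. It was at least 5.0-fold higher in ibm1 and at least 6.08-fold higher in ibm1 jmj27 than in Col. The remaining 5 were too low to enter the test. AT2G11778 had 6 and 2 counts in ibm1 and 15 and 2 in ibm1 jmj27, AT3G42385 had 16 and 7 in ibm1 jmj27 and 0 and 2 in pds5, and AT1G43810 had 6 and 13 in ibm1 and 1 and 0 in pds5, with 0 in the libraries not given. AT1G40129 and AT2G11271 had 1 to 8 counts in each of the 6 mutant libraries, against 0 in both Col libraries.

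**Figure D2:**
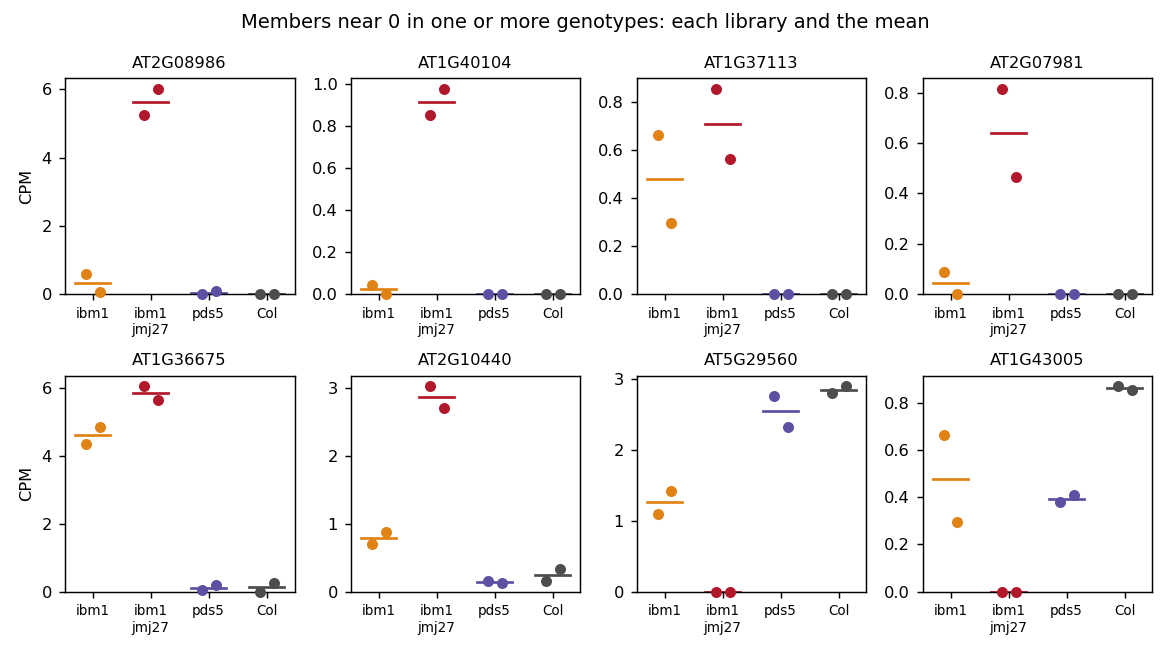
Level (CPM, vertical axis from 0, a scale of its own in each panel) of 8 members in each library (points) and the mean of each genotype (lines), with the mutants left of Col. The upper 4 members had 0 counts in Col and pds5 or at most 2 counts in pds5, and AT5G29560 and AT1G43005 had 0 counts in both ibm1 jmj27 libraries.

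A pair of members was barely detected in Col and pds5 and higher in both genotypes that carry ibm1. AT1G36675 on chromosome 1 had 99 and 99 counts in ibm1, 156 and 121 in ibm1 jmj27 and 1 and 5 in pds5, against 0 and 6 in Col. That is 4.61 ± 0.358 CPM in ibm1, 5.85 ± 0.290 CPM in ibm1 jmj27 and 0.121 ± 0.118 CPM in pds5, against 0.128 ± 0.181 in Col, with no overlap between the 4 ibm1-carrying libraries and the other 4. It rose by 5.00 ± 0.511 log2 units in ibm1 (adjusted p = 8.37e-06) and by 5.35 ± 0.496 in ibm1 jmj27 (adjusted p = 1.1e-06), was at -0.22 ± 0.975 in pds5 (adjusted p = 0.869), and ibm1 jmj27 against ibm1 gave 0.35 ± 0.288 (adjusted p = 0.349).

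AT2G10440 on chromosome 2 differed from AT1G36675 in its order between the genotypes that carry ibm1. It had 16 and 18 counts in ibm1, 78 and 58 in ibm1 jmj27 and 4 and 3 in pds5, against 3 and 8 in Col. The ibm1 libraries lay between those of ibm1 jmj27 and those of Col, without overlap. The change against Col was 3.47 ± 0.424 log2 units in ibm1 jmj27 (adjusted p = 1.41e-05) and 1.62 ± 0.503 in ibm1 (adjusted p = 0.0257), and ibm1 jmj27 was 1.85 ± 0.351 above ibm1 (adjusted p = 0.000765). Its call in ibm1 ended under DESeq2 (adjusted p = 0.0726) and without ibm1 replicate 1 (0.0621), ibm1 replicate 2 (0.132) or Col replicate 1 (0.169).

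Other members lost their reads in ibm1 jmj27. AT5G29560 on chromosome 5 had 25 and 29 counts in ibm1, 0 and 0 in ibm1 jmj27 and 73 and 57 in pds5, against 55 and 68 in Col. Its 2 ibm1 libraries lay below all pds5 and Col libraries and above ibm1 jmj27. It was at least 45.0-fold lower in ibm1 jmj27 than in Col (adjusted p = 5.75e-07) and at least 19.7-fold lower than in ibm1 (adjusted p = 1.62e-05). In ibm1 it fell by 1.18 ± 0.297 log2 units (adjusted p = 0.0093), a call lost without ibm1 replicate 1 (-1.0, adjusted p = 0.0940) or Col replicate 2 (-1.16, adjusted p = 0.0623). AT1G43005, named after its values were seen, had 15 and 6 counts in ibm1, 0 and 0 in ibm1 jmj27 and 10 and 10 in pds5, against 17 and 20 in Col, and was at least 13.5-fold lower in ibm1 jmj27 than in Col (adjusted p = 0.000222). AT1G43810, at 6 and 13 counts in ibm1, was also at 0 in both ibm1 jmj27 libraries.

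Of the 207 members, 176 passed the filter on low counts and were tested with all 21548 genes. A low member could pass this filter through the genotype where it was high, so counts of members called are read only beside the share of all genes called in the same direction. In ibm1 against Col, 30 members (17.0%) were higher, beside 16.5 percent of all genes, and 15 (8.52%) were lower, beside 14.5 percent. In ibm1 jmj27 against Col, 62 members (35.2%) were higher, beside 26.7 percent of all genes, and 25 (14.2%) were lower, beside 23.8 percent. In pds5 against Col, 36 (20.5%) were higher, beside 25.8 percent, and 34 (19.3%) were lower, beside 23.2 percent. In ibm1 jmj27 against ibm1, 51 (29.0%) were higher, beside 22.7 percent, and 27 (15.3%) were lower, beside 22.8 percent.

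The higher share thus stood close to the background in ibm1, above it in the double mutant and below it in pds5, and the lower share stood below the background in all 4 comparisons. With only the 2 genotypes of a comparison fitted, 28.0% of 168 tested members were higher in ibm1 jmj27 than in Col, beside 20.9 percent of all genes. In ibm1 jmj27 against ibm1 such a fit gave 21.3% of 169 members higher, beside 19 percent. For ibm1 against Col the lower share was 21.1% of 161 members in such a fit, beside 22.8 percent, a smaller gap than in the main fit. The median log2 fold change of the tested members was 0.04 in ibm1, 0.13 in ibm1 jmj27, 0.03 in pds5 and 0.15 in ibm1 jmj27 against ibm1, beside 0.02, 0.03, 0.00 and 0.00 over all genes tested. A change of at least 2-fold with a passed test was found for 12 higher and 2 lower members in ibm1 (3.58 and 3.52 percent of all genes), 24 and 11 in ibm1 jmj27 (7.93 and 8.24 percent), 14 and 7 in pds5 (8.04 and 4.61 percent) and 13 and 11 in ibm1 jmj27 against ibm1 (5.4 and 6.67 percent). Leaving out any 1 library of ibm1 or Col brought down the numbers of members called higher and lower in ibm1. The shares of all genes called in both directions fell as well. Without Col replicate 2 fewer members were called lower in ibm1 jmj27, and the share of all genes called lower fell too. Without ibm1 replicate 1 or ibm1 replicate 2 the 51 members higher in ibm1 jmj27 than in ibm1 became 26 or 24, then 13.8% and 12.8% of the members tested beside 15.4 and 13.2 percent of all genes.

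**Figure D3:**
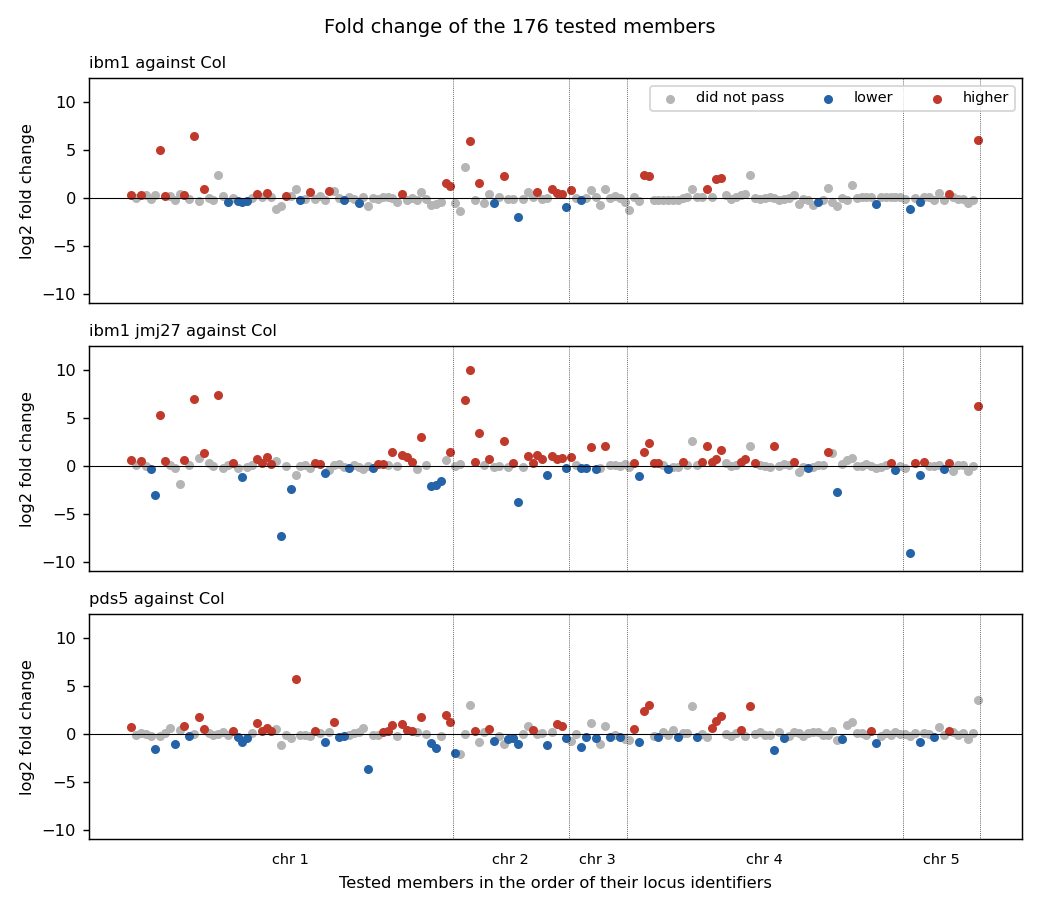
Log2 fold change (vertical axis) of the 176 tested members in the order of their locus identifiers (horizontal axis, chromosomes split by dotted lines), for ibm1, ibm1 jmj27 and pds5 against Col. Red points were higher, blue points lower and grey points did not pass. The points beyond 6 log2 units in either direction belong to members with 0 counts in one genotype, whose fitted size depends on the prior count and is no measure of the fold.

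In ibm1 and ibm1 jmj27 the share of members called higher stood furthest above the background among weakly expressed members of 1 to 10 CPM. The level is a mean over all 8 libraries, so a member can enter this class through a rise in a mutant. AT2G08986, with 0 counts in Col, and AT1G36675, barely detected there, are in it and were called higher in both genotypes. The other genes were classed the same way. Of the 39 members averaging 1 to 10 CPM, 14 (35.9%) were higher and 3 lower in ibm1, beside 12.7 and 16.1 percent of the 5617 genes of that level, and 18 (46.2%) were higher and 3 lower in ibm1 jmj27, beside 26.3 and 23 percent. In pds5 the same 39 gave 8 higher and 4 lower, beside 24.6 and 18.5 percent. Of the 110 members at 10 CPM or more, 12 were higher and 12 lower in ibm1, beside 19.3 and 15 percent, 35 and 19 in ibm1 jmj27, beside 27.9 and 24.6 percent, and 24 and 28 in pds5, beside 27.7 and 27.5 percent. The 27 tested members under 1 CPM gave 4 higher and 0 lower by edgeR in ibm1 (0 lower also at an unadjusted p under 0.05 and by DESeq2), beside 6.78 and 6.73 percent of the 1947 genes of that level. They gave 9 and 3 in ibm1 jmj27, beside 18.5 and 20.6 percent, and 4 and 2 in pds5, beside 16.2 and 5.8 percent, but these passed the filter through the genotype where they were high. In ibm1 the 14 higher members at 1 to 10 CPM became 6 without ibm1 replicate 1, 8 without ibm1 replicate 2, 5 without Col replicate 1 and 11 without Col replicate 2, beside 7.6, 7.49, 7.74 and 7.55 percent of all genes of that level. In ibm1 jmj27 each such fit called fewer than 18 of these members higher, and the share of all genes of that level moved as well. With ibm1 jmj27 and Col alone in the fit, 16 of the 39 (41.0%) were higher, beside 21.3 percent of 5602 genes of that level.

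**Figure D4:**
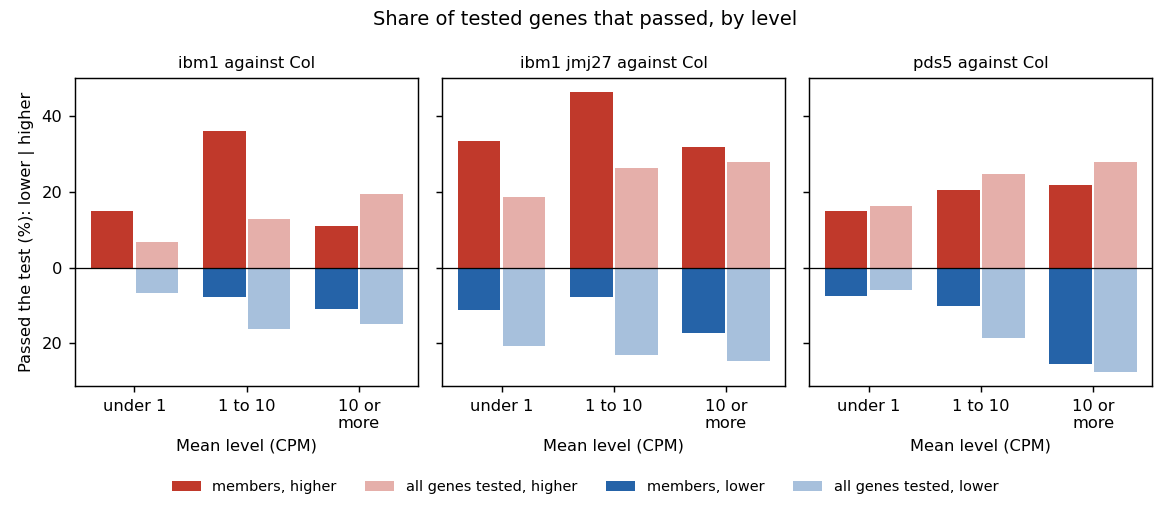
Share of tested genes (%, vertical axis) that were higher (red, above 0) or lower (blue, below 0) than in Col, for members (dark) and all genes tested (pale), in 3 classes of mean level in CPM (horizontal axis). In the class of 1 to 10 CPM, 35.9% of members were higher in ibm1 and 46.2% in ibm1 jmj27, beside 12.7 and 26.3 percent of all genes.

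The chromosomes were not alike in these counts. In ibm1 jmj27 against Col, 14 of the 24 tested members on chromosome 2 were higher and 3 lower, with a median log2 fold change of 0.34. Over all genes of that chromosome 27.1 percent were higher and 24.3 percent lower, with a median of 0.03. The 14 include AT2G08986 and AT2G07981, which had 0 counts in Col and were tested only through their counts in the mutants. The counts of AT2G07981 are also uncertain, as said above. On chromosome 4, 18 of 57 were higher, beside 29.0 percent, and on chromosome 1, 23 of 67, beside 26 percent. In pds5 the 12 tested members on chromosome 3 had 0 higher by edgeR (2 at an unadjusted p under 0.05, 0 by DESeq2) and 5 lower, with a median of -0.32, beside 26.7 and 22.7 percent of all genes of that chromosome. On chromosome 1, by contrast, 21 of 67 were higher in pds5, beside 25.0 percent.

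Some members higher in ibm1 jmj27 followed each other in the order of tested genes. Untested rows were skipped, so the genes of a run need not be adjacent on the chromosome. In that comparison 35.2% of members and 26.7 percent of all genes were called higher. Runs come more often where more genes are called, so the 2 shares of genes in runs below are not on an equal footing. With tested genes taken in identifier order, 5 runs of at least 4 neighbours that all rose held 21 of the 176 members (11.9%) in ibm1 jmj27 against Col, beside 4.78% of all genes in runs of either direction. In ibm1 no such run was found among members and 0.961% of all genes lay in one, and in pds5 a single run of 4 members was found (2.27%), beside 4.42% of all genes. The runs ran from AT1G42550 to AT1G42990, from AT2G07981 to AT2G10440, from AT2G11891 to AT2G12190, from AT4G05370 to AT4G05400 and from AT4G05530 to AT4G06536. The first of them was also the run in pds5, and the second the only run in ibm1 jmj27 against ibm1. The second holds AT2G07981 and AT2G08986, which had 0 counts in Col and passed the filter only through the mutants. The first run, the run from AT4G05370 and the last run rest on calls in ibm1 jmj27 that were lost in some settings given below. These are the calls of BZIP60 in the first, RFNR1 in the run from AT4G05370, and AT4G06534 and AT4G06536 in the last. Overlapping or antisense neighbours can share reads, and the strand setting of the counting is not given in the sources used here.

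The run on chromosome 1 was made of expressed, annotated genes. PMI1 (AT1G42550), a protein needed for chloroplast and nuclear movement, stood at 73.9 and 79.8 CPM in ibm1, 82.7 and 112 in ibm1 jmj27 and 137 and 130 in pds5, against 56.0 and 61.0 in Col. All mutant libraries were above Col, and pds5 was highest. It rose by 0.39 ± 0.120 log2 units in ibm1 (adjusted p = 0.0280), 0.73 ± 0.119 in ibm1 jmj27 (adjusted p = 0.000382) and 1.19 ± 0.119 in pds5 (adjusted p = 8.13e-06). The other 3 tested members of this run were AT1G42960, GAPB and BZIP60, which rose by 0.33, 0.92 and 0.25 in ibm1 jmj27 and by 0.30, 0.60 and 0.33 in pds5. The call of BZIP60 in ibm1 jmj27 (adjusted p = 0.0200) was lost with DESeq2 (0.113) and without ibm1 jmj27 replicate 1 (0.0973), Col replicate 1 (0.114) or Col replicate 2 (0.0705).

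Near the other end of the scale, 2 pairs of adjacent weak members on chromosome 4 were higher in all 3 mutants. AT4G05370 stood at 3.61 and 3.39 CPM in ibm1, 1.59 and 2.19 in ibm1 jmj27 and 3.83 and 3.43 in pds5, against 0.562 and 0.767 in Col. Every mutant library was above Col, and ibm1 jmj27 was lower than the other mutants. Its log2 fold change was 2.37 ± 0.298 in ibm1 (adjusted p = 4.63e-05), 1.48 ± 0.318 in ibm1 jmj27 (adjusted p = 0.00162) and 2.43 ± 0.293 in pds5 (adjusted p = 1.25e-05). Its neighbour AT4G05380 stood at 2.42 and 2.11 CPM in ibm1, 3.38 and 1.35 in ibm1 jmj27 and 3.56 and 3.96 in pds5, against 0.306 and 0.597 in Col. It rose by 2.28 ± 0.472 (adjusted p = 0.00261), 2.37 ± 0.464 (adjusted p = 0.000892) and 3.01 ± 0.441 (adjusted p = 8.64e-05) log2 units in ibm1, ibm1 jmj27 and pds5, and its libraries did not overlap those of Col.

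AT4G06534 stood at 6.69 and 5.75 CPM in ibm1, 2.33 and 2.89 in ibm1 jmj27 and 4.43 and 3.47 in pds5, against 1.33 and 1.71 in Col. The order was ibm1 above pds5 above ibm1 jmj27 above Col, with no 2 genotypes overlapping. It rose by 2.02 ± 0.237 log2 units in ibm1 (adjusted p = 2.55e-05) and by 1.37 ± 0.244 in pds5 (adjusted p = 0.000384), and ibm1 jmj27 was 1.26 below ibm1 (log2 fold change -1.26 ± 0.217, adjusted p = 0.000384). In ibm1 jmj27 it was 0.76 ± 0.258 above Col (adjusted p = 0.0240), which did not pass with DESeq2 (adjusted p = 0.0729), without ibm1 jmj27 replicate 2 (0.60, adjusted p = 0.0918) or without Col replicate 1 (0.60, adjusted p = 0.148). AT4G06536, at 2.25 and 1.62 CPM in ibm1, 1.86 and 0.933 in ibm1 jmj27 and 2.01 and 1.14 in pds5, against 0.204 and 0.639 in Col, rose by 2.14 ± 0.523, 1.69 ± 0.538 and 1.84 ± 0.528 in the 3 mutants. None of these calls of AT4G06536 held without Col replicate 1, with adjusted p = 0.0729, 0.142 and 0.0967, nor without replicate 1 of the mutant itself, with adjusted p = 0.0738, 0.152 and 0.109.

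Further members of chromosome 4 told the double mutant from ibm1. AT4G05590, with the RefSeq synonym NRGA1, a negative regulator of abscisic acid signalling in guard cells, stood at 3.04 and 3.05 CPM in ibm1, 6.29 and 7.47 in ibm1 jmj27 and 1.14 and 1.51 in pds5, against 1.53 and 1.71 in Col. It was 2.08 ± 0.224 log2 units above Col in ibm1 jmj27 (adjusted p = 4.21e-06) and 1.17 ± 0.205 above ibm1 (adjusted p = 0.000433), with no overlap between ibm1 jmj27 and any other genotype. In ibm1 it was 0.90 ± 0.242 above Col (adjusted p = 0.0119), with adjusted p between 0.0536 and 0.0782 once any 1 library of ibm1 or Col was left out. AT4G07940 stood at 1.63 and 1.97 CPM in ibm1, 9.82 and 5.51 in ibm1 jmj27 and 0.644 and 0.490 in pds5, against 1.69 and 1.88 in Col. It rose by 2.11 ± 0.284 in ibm1 jmj27 (adjusted p = 3.51e-05), fell by 1.64 ± 0.389 in pds5 (log2 fold change -1.64, adjusted p = 0.00325) and was at 0.01 ± 0.332 in ibm1 (adjusted p = 0.994), so ibm1 jmj27 lay above Col and pds5 below it.

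Members with a known role were described through 6 lists holding 53 genes, 46 of which were members. Their counts stand beside the shares of all genes called higher and lower, which were 16.5 and 14.5 percent in ibm1, 26.7 and 23.8 in ibm1 jmj27, 25.8 and 23.2 in pds5, and 22.7 and 22.8 in ibm1 jmj27 against ibm1. The all-gene medians of log2 fold change were 0.02, 0.03, 0.00 and 0.00 in the same comparisons. Each list held few tested genes, and no list is read as standing apart from these shares. The list of plastid and photosynthesis genes had 8 tested members, with 3 higher and 1 lower in ibm1, 5 and 1 in ibm1 jmj27, 4 and 1 in pds5, and 5 and 1 in ibm1 jmj27 against ibm1. Their median log2 fold changes were -0.06, 0.28, 0.21 and 0.41. The members of this list summed to 1264 and 1298 CPM in ibm1, 1458 and 1819 in ibm1 jmj27 and 1321 and 1420 in pds5, against 1024 and 1058 in Col. The green tissue markers outside the intervals were higher in the same genotypes, as given above, and their part in these values was not tested.

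CH1 (AT1G44446), chlorophyllide a oxygenase, which makes chlorophyll b, stood at 98.0 and 95.9 CPM in ibm1, 98.3 and 126 in ibm1 jmj27 and 98.1 and 101 in pds5, against 38.9 and 41.3 in Col. All 6 mutant libraries were above 95 CPM and both Col libraries under 42. It rose by 1.27 ± 0.101 log2 units in ibm1 (adjusted p = 8.18e-07), 1.48 ± 0.101 in ibm1 jmj27 (adjusted p = 4.95e-08) and 1.31 ± 0.100 in pds5 (adjusted p = 1.76e-07). GAPB (AT1G42970), a subunit of the chloroplast glyceraldehyde-3-phosphate dehydrogenase of the Calvin cycle, stood at 778 and 753 CPM in ibm1, 861 and 1177 in ibm1 jmj27 and 770 and 858 in pds5, against 547 and 527 in Col. It rose by 0.51 ± 0.121, 0.92 ± 0.121 and 0.60 ± 0.121 in the 3 mutants, with adjusted p = 0.00617, 3.53e-05 and 0.00114. The call in ibm1 was lost without ibm1 replicate 1 (0.49, adjusted p = 0.0611), ibm1 replicate 2 (0.52, adjusted p = 0.0555) or Col replicate 2 (0.48, adjusted p = 0.0683).

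SAPX (AT4G08390), an ascorbate peroxidase of the chloroplast stroma that removes hydrogen peroxide, went the other way. It stood at 92.8 and 93.9 CPM in ibm1, 124 and 123 in ibm1 jmj27 and 71.3 and 75.7 in pds5, against 140 and 137 in Col. It fell by 0.57 ± 0.0680 log2 units in ibm1 (adjusted p = 3.01e-05) and by 0.91 ± 0.0683 in pds5 (adjusted p = 1.06e-07). In ibm1 jmj27 it was at -0.16 ± 0.0672 (adjusted p = 0.0589), passing without either ibm1 jmj27 library, and it stood 0.41 ± 0.0679 above ibm1 (adjusted p = 0.000299). MGDC (AT2G11810, also MGD3), which makes the galactolipid monogalactosyldiacylglycerol mainly when phosphate is short, had the most negative log2 fold change of the members with a symbol that fell in ibm1 and in ibm1 jmj27. Its levels were 1.59 and 1.62 CPM in ibm1, 0.427 and 0.513 in ibm1 jmj27 and 3.11 and 3.35 in pds5, against 7.61 and 5.33 in Col, with no overlap between any 2 genotypes. The log2 fold changes were -2.0 ± 0.246 in ibm1 (adjusted p = 3.81e-05), -3.77 ± 0.295 in ibm1 jmj27 (adjusted p = 1.67e-07) and -1.0 ± 0.220 in pds5 (adjusted p = 0.00202, and 0.0513 at -0.72 without Col replicate 1).

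The other plastid members differed in what passed. RFNR1, a root-type ferredoxin-NADP oxidoreductase, was at -0.18 ± 0.0888 in ibm1 (adjusted p = 0.142), 0.28 ± 0.0863 in ibm1 jmj27 (adjusted p = 0.0167) and -0.19 ± 0.0877 in pds5 (adjusted p = 0.0928). The thioredoxin gene ty2 was at -0.12, 0.29 and 0.29 in ibm1, ibm1 jmj27 and pds5, with adjusted p = 0.401, 0.0229 and 0.0227. These calls of RFNR1 and ty2 in ibm1 jmj27 ended under DESeq2, at adjusted p = 0.103 and 0.100, and without Col replicate 2, at 0.27 and 0.13 with adjusted p = 0.0858 and 0.332. That of RFNR1 ended without Col replicate 1 as well (0.27, adjusted p = 0.0793), and that of ty2 in pds5 under DESeq2 (adjusted p = 0.0782) and without Col replicate 2 (0.13, adjusted p = 0.330) or pds5 replicate 1 (0.23, adjusted p = 0.156). CUE1, the phosphoenolpyruvate carrier of the plastid envelope, did not pass in any of the 3 mutants against Col, at -0.06 to 0.12. AT1G44000 rose in all 3, by 0.48 ± 0.0731, 1.13 ± 0.0719 and 1.11 ± 0.0717, with adjusted p = 0.000242, 1.98e-08 and 2.37e-08.

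**Figure D5:**
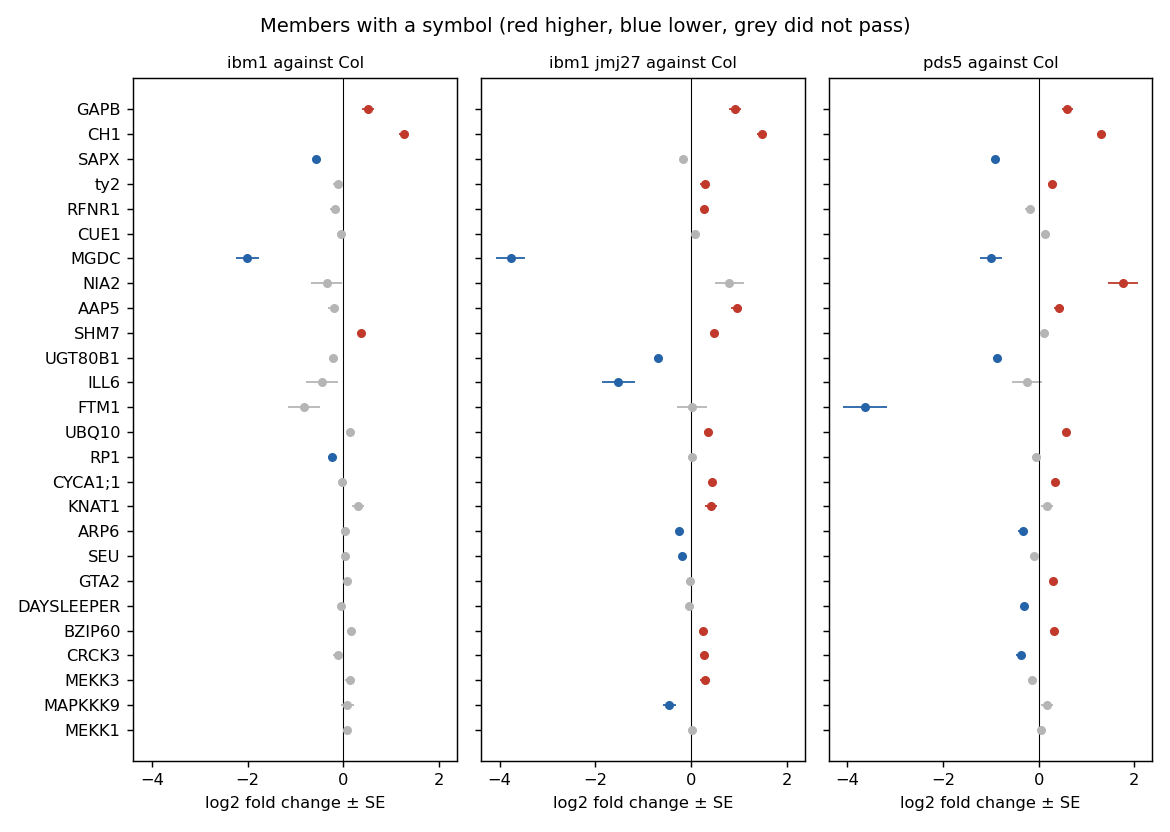
Log2 fold change against Col with its SE (horizontal axis) of 26 members with a symbol, in ibm1, ibm1 jmj27 and pds5. Points in red were higher, in blue lower, and in grey did not pass. CH1 and GAPB were higher and MGDC lower in every mutant, while FTM1 was lower in pds5 at -3.63.

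The list of metabolism and transport had 12 tested members, with 2 higher and 0 lower in ibm1 by edgeR (2 lower at an unadjusted p under 0.05, 0 by DESeq2), 3 and 2 in ibm1 jmj27, 3 and 4 in pds5, and 4 and 1 in ibm1 jmj27 against ibm1. The median log2 fold changes were -0.09, 0.19, 0.05 and 0.15. NIA2 (AT1G37130), the main nitrate reductase, stood at 24.9 and 28.2 CPM in ibm1, 42.7 and 75.7 in ibm1 jmj27 and 101 and 128 in pds5, against 32.1 and 35.3 in Col. It rose by 1.77 ± 0.306 in pds5 (adjusted p = 0.00754), was at 0.81 ± 0.310 in ibm1 jmj27 (adjusted p = 0.0891, and 0.00295 at 1.16 without ibm1 jmj27 replicate 1) and at -0.35 ± 0.327 in ibm1 (adjusted p = 0.486). NIA2 is a clock-controlled gene in leaves, and the LHY levels given above had the same order among the 3 mutants. In Col, however, LHY was below ibm1 while NIA2 was above it. The part of the clock in this result was not tested. AAP5, an amino acid permease, stood at 15.5 and 16.0 CPM in ibm1, 31.4 and 38.9 in ibm1 jmj27 and 25.2 and 23.6 in pds5, against 19 and 17.3 in Col, and rose by 0.95 ± 0.108 in ibm1 jmj27 (adjusted p = 6.69e-06).

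UGT80B1, a sterol glucosyltransferase, stood at 32.9 and 32.2 CPM in ibm1, 23.2 and 23.8 in ibm1 jmj27 and 20.4 and 21.2 in pds5, against 35.7 and 39.9 in Col. The libraries of ibm1 jmj27 and pds5 were below all others. It fell by 0.69 ± 0.0830 in ibm1 jmj27 (adjusted p = 1.28e-05) and by 0.86 ± 0.0833 in pds5 (adjusted p = 1.41e-06). FTM1 (AT1G43800, also SAD6), a stearoyl-ACP desaturase gene active in the meristem at the floral transition, stood at 1.54 and 2.11 CPM in ibm1, 4.39 and 2.05 in ibm1 jmj27 and 0.265 and 0.245 in pds5, against 3.01 and 3.41 in Col. It fell in pds5 by 3.63 ± 0.453 (adjusted p = 1.73e-05), was at 0.02 ± 0.313 in ibm1 jmj27 (adjusted p = 0.966) and at -0.82 ± 0.339 in ibm1 (adjusted p = 0.0819). SHM7, of the serine hydroxymethyltransferase family, rose by 0.49 ± 0.0844 in ibm1 jmj27 (adjusted p = 0.000285) and by 0.37 ± 0.0849 in ibm1 (adjusted p = 0.00505), where the call ended without ibm1 replicate 2 (0.33, adjusted p = 0.0769) or Col replicate 2 (0.36, adjusted p = 0.0509). ILL6, which cleaves jasmonate conjugates, was at -1.52 ± 0.350 in ibm1 jmj27 (adjusted p = 0.0188), with adjusted p from 0.0676 to 0.117 when any 1 library of ibm1 jmj27 or Col was left out.

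In the list of stress and defense signalling, 6 members were tested, with 0 higher and 0 lower in ibm1 by edgeR, by DESeq2 and at an unadjusted p under 0.05, 3 and 2 in ibm1 jmj27, 1 and 1 in pds5, and 1 and 2 in ibm1 jmj27 against ibm1. The list holds 3 neighbouring kinase genes of the MEKK family, which act at the head of mitogen-activated protein kinase cascades in defense. They are close copies, so reads may be shared between them. MAPKKK9 (AT4G08480) stood at 27.9 and 29.7 CPM in ibm1, 16.4 and 23.5 in ibm1 jmj27 and 30.5 and 31.1 in pds5, against 27.5 and 26.7 in Col. It fell by 0.45 ± 0.129 in ibm1 jmj27 (adjusted p = 0.0112), a call lost without ibm1 jmj27 replicate 1 (-0.21, adjusted p = 0.0782), Col replicate 1 (-0.43, adjusted p = 0.0662) or Col replicate 2 (-0.47, adjusted p = 0.0512). MEKK1, at 37.1 to 39.4 CPM in the libraries of ibm1 and ibm1 jmj27, 35.8 and 39.4 in pds5 and 36.6 in both of Col, did not pass in any comparison. BZIP60, a transcription factor of the unfolded protein response, rose by 0.33 ± 0.0810 in pds5 (adjusted p = 0.00415).

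In the list of chromatin, transcription and RNA, 9 members were tested, with 0 passing in ibm1 by edgeR or DESeq2 (1 higher at an unadjusted p under 0.05), 1 higher and 3 lower in ibm1 jmj27, 1 and 2 in pds5, and 2 and 2 in ibm1 jmj27 against ibm1. Their median log2 fold changes stayed between -0.10 and -0.03. ARP6, a subunit of the SWR1 complex that places histone H2A.Z, stood at 36.5 and 33.8 CPM in ibm1, 30.4 and 27.7 in ibm1 jmj27 and 27.1 and 27.5 in pds5, against 32.7 and 36.1 in Col. It fell by 0.34 ± 0.0854 in pds5 (adjusted p = 0.00505, and 0.0780 at -0.26 without Col replicate 2) and by 0.24 ± 0.0854 in ibm1 jmj27 (adjusted p = 0.0285), where the call ended under DESeq2 (adjusted p = 0.0652), without ibm1 jmj27 replicate 2 (-0.18, adjusted p = 0.0938) and without Col replicate 2 (-0.17, adjusted p = 0.234). DAYSLEEPER, a gene derived from a hAT transposase and needed for plant development, stood at 122 and 120 CPM in ibm1, 121 and 123 in ibm1 jmj27 and 103 and 99.5 in pds5, against 127 and 123 in Col. It fell by 0.30 ± 0.0678 in pds5 (adjusted p = 0.00245), where both libraries were below all 6 others, and was at -0.04 and -0.03 in ibm1 and ibm1 jmj27 (adjusted p = 0.702 and 0.735). KNAT1, a homeobox regulator of the shoot meristem, was at 0.43 ± 0.125 in ibm1 jmj27 (adjusted p = 0.0156, and 0.0994 at 0.37 without Col replicate 1).

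Genes of protein turnover, ribosomes and the cell cycle formed a list with 7 tested members, of which 0 were higher and 1 lower in ibm1, 3 and 1 in ibm1 jmj27, 3 and 0 in pds5, and 3 and 0 in ibm1 jmj27 against ibm1. These are edgeR calls. DESeq2 also gave 0 where edgeR did, and at an unadjusted p under 0.05 the only such gene was 1 lower in pds5. UBQ10, a polyubiquitin gene often used as a reference in expression assays, stood at 1037 and 1049 CPM in ibm1, 1237 and 1185 in ibm1 jmj27 and 1436 and 1389 in pds5, against 972 and 927 in Col. The 4 genotypes did not overlap. It rose by 0.35 ± 0.0789 in ibm1 jmj27 (adjusted p = 0.00217) and by 0.57 ± 0.0790 in pds5 (adjusted p = 4.28e-05), and was at 0.14 ± 0.0789 in ibm1 (adjusted p = 0.212). CYCA1;1, a cyclin of dividing cells, stood at 29.7 and 30.5 CPM in ibm1, 42.2 and 40.7 in ibm1 jmj27 and 38.1 and 40.4 in pds5, against 33.2 and 28.4 in Col, and rose by 0.43 ± 0.0850 in ibm1 jmj27 (adjusted p = 0.000844) and by 0.35 ± 0.0848 in pds5 (adjusted p = 0.0036, and 0.0805 at 0.24 without Col replicate 2). RP1, a ribosomal protein gene, was at -0.24 ± 0.0815 in ibm1 (adjusted p = 0.0379), with adjusted p from 0.129 to 0.223 when any 1 library of ibm1 or Col was left out. Of the 3 tested members of cell walls and surfaces, 0 passed by edgeR, by DESeq2 or at an unadjusted p under 0.05 in ibm1 and in ibm1 jmj27 against Col, 1 was lower in pds5, and 1 was lower in ibm1 jmj27 against ibm1.

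The most abundant members were RP1, UBQ10, AT5G33370, AT2G10940 and GAPB, which together took 40.8% to 44.9% of the member counts of each library. AT2G10940 stood at 692 and 715 CPM in ibm1, 820 and 1006 in ibm1 jmj27 and 608 and 616 in pds5, against 992 and 979 in Col. It fell by 0.49 ± 0.0947 in ibm1 (adjusted p = 0.00159) and by 0.69 ± 0.0949 in pds5 (adjusted p = 4.33e-05). AT5G33370 did not pass against Col in any mutant, and its ibm1 jmj27 libraries of 761 and 1008 CPM lay on either side of the Col libraries of 889 and 907.

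Members without an annotated role also fell. AT3G32940 on chromosome 3 stood at 41.1 and 38.3 CPM in ibm1, 40.3 and 38.9 in ibm1 jmj27 and 18.4 and 17.9 in pds5, against 46.3 and 45.4 in Col. It fell by 1.33 ± 0.0771 log2 units in pds5 (adjusted p = 7.33e-09), with both pds5 libraries below all others. AT1G44224 stood at 91.2 and 93.4 CPM in ibm1, 30.1 and 41.8 in ibm1 jmj27 and 46.9 and 59.2 in pds5, against 124 and 165 in Col, and fell by 2.01 ± 0.212 in ibm1 jmj27 (adjusted p = 0.000348) and by 1.45 ± 0.205 in pds5 (adjusted p = 0.00144). AT1G44191, close to it by identifier, stood at 14.9 and 13.8 CPM in ibm1, 3.61 and 7.79 in ibm1 jmj27 and 13.9 and 9.56 in pds5, against 25.1 and 20.7 in Col, and fell by 2.03 ± 0.334 in ibm1 jmj27 (adjusted p = 0.00244). AT1G43140 stood at 1.94 and 2.21 CPM in ibm1, 0.272 and 0.420 in ibm1 jmj27 and 1.40 and 1.18 in pds5, against 1.43 and 2.05 in Col, and fell by 2.34 ± 0.408 in ibm1 jmj27 (adjusted p = 0.000318). The ibm1 jmj27 libraries of these 3 members on chromosome 1 were below every other library.

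Further members had orders of genotypes of their own. NUB1 (AT2G12550), whose human homolog promotes the degradation of the ubiquitin-like protein NEDD8, stood at 13.3 and 12.7 CPM in ibm1, 21.7 and 20.5 in ibm1 jmj27 and 19.6 and 17.9 in pds5, against 24.1 and 25.6 in Col. It fell by 0.93 ± 0.0979 in ibm1 (adjusted p = 9.3e-06) and by 0.41 ± 0.0930 in pds5 (adjusted p = 0.00243). In ibm1 jmj27 it was at -0.24 (adjusted p = 0.0465), a call lost with DESeq2 (adjusted p = 0.124) and without ibm1 jmj27 replicate 2 (0.115), Col replicate 1 (0.0785) or Col replicate 2 (0.232). The level in ibm1 jmj27 was 0.70 ± 0.0984 above ibm1 (adjusted p = 7.46e-05). AT1G43910 stood at 39.4 and 38.6 CPM in ibm1, 102 and 105 in ibm1 jmj27 and 74.4 and 76.3 in pds5, against 37.3 and 39.0 in Col. It rose by 1.44 ± 0.0673 in ibm1 jmj27 (adjusted p = 7.81e-10) and by 0.98 ± 0.0674 in pds5 (adjusted p = 4.44e-08), and was at 0.03 ± 0.0697 in ibm1 (adjusted p = 0.770). RAP2.6 (AT1G43160), a stress-induced ethylene response factor named after its values were seen, had 17 and 124 counts in pds5, against 0 and 2 in Col, so its level in pds5 rested mostly on replicate 2. Its adjusted p in pds5 was 0.0115, and it did not pass without Col replicate 1 (0.0658) or Col replicate 2 (0.0556).

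Genes that write, read and remove the marks of silent chromatin or take part in silencing were followed, with histone genes, as a list of 27. All of them lie outside the intervals. Of these 2 were higher and 6 lower in ibm1, 1 and 12 in ibm1 jmj27, 6 and 12 in pds5, and 5 and 9 in ibm1 jmj27 against ibm1, with median log2 fold changes of -0.14, -0.17, -0.19 and -0.14. The shares of all genes called higher and lower were 16.5 and 14.5 percent, 26.7 and 23.8 percent, 25.8 and 23.2 percent, and 22.7 and 22.8 percent in these comparisons, and the all-gene medians were 0.02, 0.03, 0.00 and 0.00. IBM1 and JMJ27, after which the mutants are named, are on this list and were given above. IBM1 is counted among the lower genes in ibm1 and in ibm1 jmj27 against Col. JMJ27 is counted among them in ibm1 jmj27 against Col and against ibm1. The histone genes HTA6, HTA7, H1.1 and H1.2 are among those higher in pds5. CMT3 stood at 96.7 and 89.7 CPM in ibm1, 75.5 and 77.2 in ibm1 jmj27 and 79.5 and 75.4 in pds5, against 99.5 and 99.3 in Col, and fell by 0.38 in ibm1 jmj27 (adjusted p = 0.000463) and by 0.36 in pds5 (adjusted p = 0.000705). MET1, which maintains CG methylation, stood at 120 and 118 CPM in ibm1, 63.7 and 79.9 in ibm1 jmj27 and 94.6 and 96.3 in pds5, against 126 in both Col libraries, and fell by 0.82 in ibm1 jmj27 (adjusted p = 5.65e-06). KYP passed in pds5 at -0.32 (adjusted p = 0.00325) and was at -0.14 and -0.06 in ibm1 and ibm1 jmj27 (adjusted p = 0.170 and 0.546).

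The threshold of 20 counts cut through a group of similar rows. Just inside it were AT1G43810 and AT2G07827 with 20 counts and AT2G11570 and AT1G44080 with 21, and just outside were AT1G43680 with 19 and AT1G43145, AT2G11620 and AT3G42380 with 18. AT3G42380 had 1 and 3 counts in ibm1, 10 and 4 in ibm1 jmj27 and 0 and 0 in pds5, against 0 and 0 in Col.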

How the data were processed

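The authors deposited raw read counts per gene in 3 tables, each with the Col libraries and 1 mutant, and the Col columns were equal in all 3. Per the submitters' processing notes HISAT2, Subread and DESeq2 were used, and the build was TAIR10. For versions, annotation, strand setting and reads with several matches, the answer is not given in the sources used here, so counts of near-identical, overlapping or antisense genes are uncertain. All columns were mapped to samples by their names, and 0 were left over. No coordinates are printed, since the names came from TAIR10.1.

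All 8 libraries went into 1 fit in R 4.3.3 with edgeR 4.0.16 (TMM scaling, filterByExpr, quasi-likelihood test with robust estimation, a mean per genotype, 4 residual degrees of freedom). The threshold was 0.05 on p adjusted by Benjamini-Hochberg over 21548 genes. The SE was taken as |log2 fold change| divided by the root of F. A fold against a group at 0 counts is a lower bound computed from 3 counts summed over that group, and ratios resting on 1 to 3 counts have exact 95% Poisson intervals. The code was tested on simulated data.

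Members and lists were chosen with earlier results of these data known. Named members are the 5 most abundant, the 5 highest and 5 lowest per comparison among those past the threshold with average log2 CPM of at least 0 and both libraries outside the range of the other group, members at 0 counts in one genotype and at least 20 counts per library in another, list members, runs and the rows at the threshold. Alternatives were DESeq2 1.42.0, its size factors in edgeR, no filter, no robust estimation, 2 genotypes alone, a replicate term, each library left out, a minimum log2 fold change of 1 and members without AT2G07 loci. Comparisons with pds5 in place of Col were added after seeing the data.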

Additional observations from a re-analysis of the deposited data

How the results depend on the processing

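Counts of members moved by over 1.5 times under few settings. With an absolute log2 fold change of at least 1 the higher and lower members numbered 12 and 2 in ibm1, 24 and 11 in ibm1 jmj27, 14 and 7 in pds5, and 13 and 11 in ibm1 jmj27 against ibm1. With ibm1 and Col fitted alone, 34 members were lower in ibm1 in place of 15. That was 21.1% of the 161 members tested, beside 22.8 percent of all genes, so all genes moved as well. Leaving out 1 library at a time gave 15 to 18 higher and 6 to 10 lower in ibm1, 44 to 67 and 16 to 29 in ibm1 jmj27, 24 to 31 and 23 to 28 in pds5, and 24 to 58 and 18 to 27 in ibm1 jmj27 against ibm1. The shares of all genes called moved in these fits too. A lone library left in a group is assumed to vary like the other groups. DESeq2 called 21 and 13, 47 and 20, 31 and 28, and 39 and 22 of 207 members in these comparisons. Beside them stood 9.39 and 10.2, 16.8 and 17.9, 17.2 and 16.3, and 14.5 and 15.5 percent of all genes. The causes were not tested.

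Replicate numbers were not used as pairs in the main fit. Deviations of same-numbered libraries from their genotype means correlated at -0.00671 to 0.101 across genes in the 6 pairs of genotypes, 2 numbers each. Such values cannot show whether same-numbered libraries were handled together. With the replicate block, 31 and 17 members were higher and lower in ibm1, 62 and 26 in ibm1 jmj27, 36 and 35 in pds5, and 52 and 26 in ibm1 jmj27 against ibm1.

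Over the 324 values of 78 named members, 3846 were recomputed. Of these 3457 kept their direction and side of the threshold, 322 lost the call, 66 gained one, and 1 reversed. AT5G33370 in ibm1 jmj27 against Col was -0.02 and ran from -0.24 without ibm1 jmj27 replicate 2 (adjusted p = 0.000898) to 0.17 without ibm1 jmj27 replicate 1 (adjusted p = 0.0165). With the 2 genotypes fitted alone, the calls of RAP2.6 in pds5 (adjusted p = 0.180) and of ty2, RFNR1, AT4G06534 and BZIP60 in ibm1 jmj27 (adjusted p = 0.0996, 0.0518, 0.0792 and 0.0799) were lost. Members under 1 CPM rest on few counts, so differences there under about the floor of 3 counts per group are not detectable at this depth.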
